A study of Dorcoceras hygrometricum with 9 samples.

Results

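The subject is the intermediate state of a drying leaf: leaves of the resurrection plant Boea hygrometrica at 70% relative water content (RWC, the water a leaf holds as a share of what it holds when fully turgid), set against both ends of the drying course. Messenger RNA was sequenced from leaf tissue of potted plants in 9 libraries, 3 from hydrated plants (titled HD), 3 from plants dried to 70% RWC and 3 from plants dried to 10% RWC, and no other treatment or genotype is given. The submitters' design text calls the 3 libraries of a state biological replicates, and the sources used here do not say how many plants stand behind a library. The p-values therefore measure the spread between these libraries, part of which may be technical. The members were the genes whose level at 70% RWC lay above both or below both of the other states. Of 24182 genes with a read in any library, 14585 passed a filter on low counts, and 6790 of those were members: 3507 above both states and 3283 below both. The remaining 7795 lay between the other states. A gene could pass the filter through a single state, and such a gene had to differ between states.

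A resurrection plant survives the loss of nearly all of its leaf water and regains function on rewatering. In drying leaves of many plants the hormone abscisic acid (ABA) accumulates. It is made by cleavage of plastid carotenoids, is broken down by cytochrome P450 hydroxylases, and acts through receptors that block protein phosphatases 2C. Late embryogenesis abundant (LEA) proteins and sugars such as sucrose and raffinose are known to protect membranes and proteins in dry seeds and dry vegetative tissue. Names of genes below are the authors' best database matches, so roles come mostly from other plants. Only uniquely aligned reads were counted, so levels of near-identical family members, among them LEA proteins, early light-induced proteins, histones, tubulins and protein phosphatases, are uncertain.

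The libraries held 6654601 to 7423965 uniquely aligned reads in the genes tested. In a principal component analysis the first component, with 72.6% of the variance, ordered the states by drying. The second component, with 23.8%, set 70% RWC (scores of -87.34 to -86.56) apart from hydrated leaves (37.25 to 37.52) and from 10% RWC (49.12 to 50.31). Replicates 2 and 3 of each state were closer to each other than to replicate 1, with a chi-square per gene of 1.26 to 1.36 between them against 4.67 to 8.05 in pairs with replicate 1. The tissue label was checked against 40 genes of the photosystems and light harvesting, which made up 6.74 ± 0.83% of CPM (reads of a gene scaled to one library total) in hydrated leaves. That share was 1.13 ± 0.102% at 70% RWC and 0.634 ± 0.0639% at 10% RWC (SD, n = 3).

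**Figure D1:**
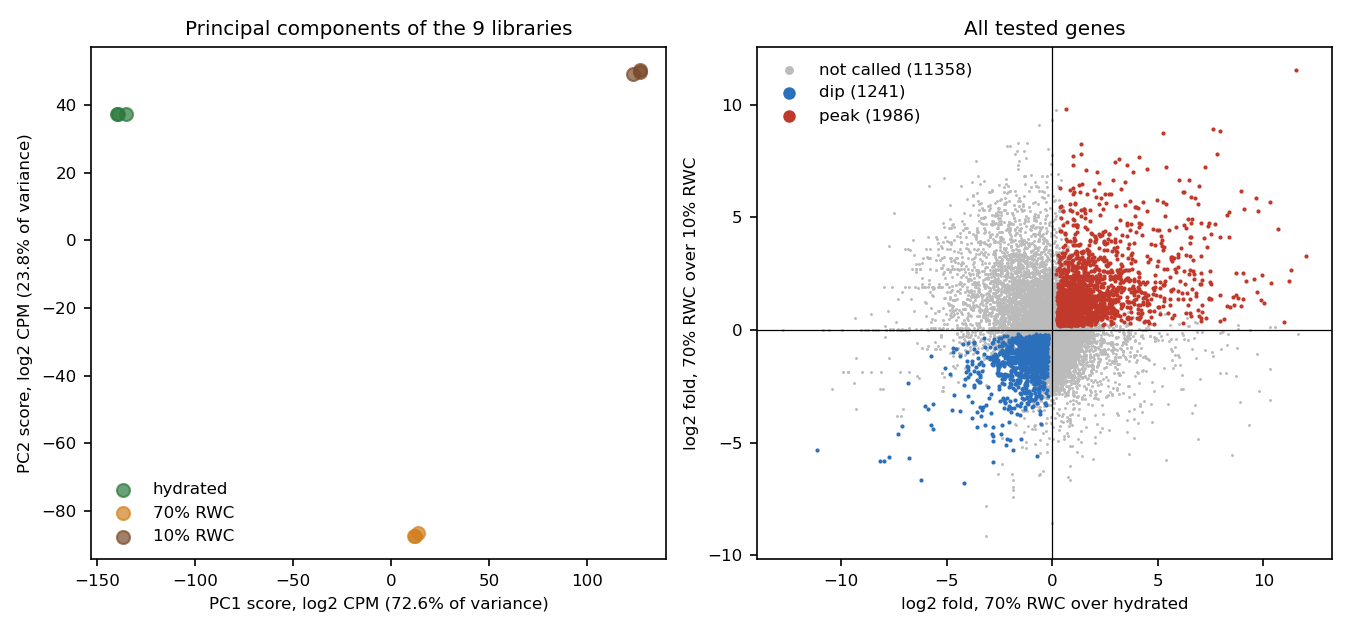
The left panel plots the 9 libraries on the first and second principal components of log2 CPM, and the right panel plots the log2 difference of 70% RWC from hydrated leaves (x axis) against that from 10% RWC (y axis) for 14585 genes. The 1986 peaks (red) fill the upper right, the 1241 dips (blue) the lower left, and the 3 libraries at 70% RWC lie apart from the other 6 on the second component.

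Which genes were highest or lowest in the middle of drying was asked by a single contrast and by a pair of comparisons. The single contrast compared the log2 level at 70% RWC with the mean of the 2 outer states, using edgeR's quasi-likelihood test and p-values adjusted by Benjamini-Hochberg over 14585 genes. It called 9789 genes (67.1% of those tested), 4929 higher at 70% RWC (33.8%) and 4860 lower (33.3%). The difference was at least 2-fold for 2114 of the higher genes and 1588 of the lower ones. This contrast alone does not show a turn: in 3901 of the called genes (39.9%) 70% RWC lay between the other states, and 541 of the genes called higher were below the mean of the outer states on the linear CPM scale. A gene was therefore called a peak only when it was higher at 70% RWC than in hydrated leaves and than at 10% RWC, with the larger of the 2 p-values adjusted over all genes and under 0.05. A dip was lower than both by the same rule. The comparisons behind it called 70.5% of genes against hydrated leaves and 76.8% against 10% RWC, in either direction.

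By that rule 1986 genes were peaks (13.6% of those tested) and 1241 were dips (8.51%). The smaller of a gene's 2 log2 differences had a median of 0.87 among peaks and -0.73 among dips. Peaks of at least 2-fold against both states numbered 860 (5.90%), those of at least 4-fold 287 and those of at least 8-fold 118. The same counts for dips were 384 (2.63%), 81 and 26. With the close replicates 2 and 3 of each state summed to 1 sample, 1649 peaks and 943 dips were called. Peaks together took up 11.5 ± 0.0662% of CPM in hydrated leaves, 44.0 ± 1.3% at 70% RWC and 16.3 ± 0.39% at 10% RWC, and dips 11.3 ± 0.0672%, 5.44 ± 0.0252% and 13.6 ± 0.0677% (SD, n = 3). These shares describe genes chosen by the same values. Percents of CPM refer to the TMM-scaled total and are not exact shares of reads. The factor was 0.947 to 0.982 at 70% RWC, 1.01 to 1.05 in hydrated leaves and 1.005 to 1.02 at 10% RWC. Percents of CPM thus lie above shares of reads at 70% RWC and below them in the other states. At 70% RWC the factor also adds to the SD of the percent for peaks. All CPM are relative to a library, so a level can fall because other transcripts rose. In whole leaves fewer cells of a type and less RNA per cell cannot be told apart.

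Just inside the threshold for a peak stood Bhs710_037V1.1, with an adjusted p of 0.0493 and a smaller log2 difference of 0.19, and just outside it Bhs8913_001V1.1, with 0.05 and 0.4. For dips these were Bhs78_019V1.1, with 0.0498 and -0.56, and Bhs720_011V1.1, with 0.0506 and -0.19. Calls were more frequent among genes with more reads. Peaks and dips were 6.69% and 4.36% of 3048 genes under 5 CPM, 13% and 9.02% of 7303 genes from 5 to 50 CPM, and 19.7% and 10.6% of 4234 genes at 50 CPM and over. The median coding length was 1137 bases for peaks and 1284 for dips, against 1170 for all genes tested.

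In 945 peaks (47.6%) and 760 dips (61.2%) the whole 95% interval of the difference between 10% RWC and hydrated leaves lay within 2-fold, against 31.6% of all genes tested. The call uses the same hydrated and 10% RWC libraries and favours genes whose outer states lie close together, so nothing is read from the excess. The test of 10% RWC against hydrated leaves called 83.9% of all genes. Among peaks it called 799 higher at 10% RWC, 685 lower and 502 neither. Among dips it called 513 higher, 367 lower and 361 neither. The whole interval lay over 2-fold above hydrated leaves in 354 peaks and over 2-fold below them in 245, and peaks that ended near, above and below the hydrated level all appear below. In what follows, values in threes are mean ± SD of CPM (n = 3) in the order hydrated, 70% RWC and 10% RWC. Smaller families within the lists were picked out after their values were seen. Log2 differences carry their standard error, and each adjusted p is that of the peak or dip call. Libraries at 70% RWC did not overlap those of the other states in 1969 of 1986 peaks and 1224 of 1241 dips. Non-overlap in a named gene thus adds little to its call. Called or not, it held in 2327 of 3507 genes above both states and 1649 of 3283 below both. Counts of peaks and dips per list or family stand against 13.6% and 8.51% over all genes.

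The 12 strongest peaks, by the smaller of the differences from the outer states, are given first. They were taken among described genes whose 3 libraries at 70% RWC did not overlap the other 6. Bhs4995_001V1.1 encodes a dehydration-responsive element binding protein (DREB), a class of transcription factors that switches on drought genes in Arabidopsis. It had 0.383, 0.142 and 0.0 CPM in the hydrated libraries, 47.6, 49.5 and 53.2 CPM at 70% RWC and 0.0, 0.0 and 0.27 CPM at 10% RWC. All 3 libraries at 70% RWC stood above the other 6, where the 3 libraries at 10% RWC held 2 reads together. The ratio of 70% RWC to 10% RWC was 523 (95% interval 144 to 4323, counting error only), with an adjusted p of 4.08e-13. Bhs1494_002V1.1 is a 9-cis-epoxycarotenoid dioxygenase (NCED), the enzyme of the first committed step of ABA synthesis. It had 0.511, 0.851 and 0.882 CPM in the hydrated libraries, 65, 69.1 and 67.2 CPM at 70% RWC and 0.533, 0.421 and 0.946 CPM at 10% RWC. It was high at 70% RWC alone and overlapped between hydrated leaves and 10% RWC, with log2 differences of 6.47 ± 0.18 and 6.68 ± 0.18 and an adjusted p of 1e-14. Both genes passed the filter on low counts only through 70% RWC, so they had to differ between states. Their p-values therefore add little. The same holds for others of the 12 strongest with almost no reads in both outer states.

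Bhs3_127V1.1 is a mitogen-activated protein kinase kinase kinase, the top tier of a phosphorylation cascade. It had 2.94, 3.12 and 3.97 CPM in the hydrated libraries, 318, 301 and 324 CPM at 70% RWC and 4.26, 6.17 and 5.27 CPM at 10% RWC. The 3 libraries at 70% RWC were far above all others, by 6.56 ± 0.11 on the log2 scale against hydrated leaves and 5.91 ± 0.10 against 10% RWC (adjusted p = 6.18e-17). Bhs358_003V1.1, a carotenoid cleavage dioxygenase outside the NCED group, had 4.53 ± 1.51, 294 ± 36.7 and 2.92 ± 1.19 CPM, and Bhs373_001V1.1, described only as R111, had 6.63 ± 0.887, 505 ± 10.1 and 7.13 ± 0.536 CPM. At 10% RWC they differed from hydrated leaves by -0.64 ± 0.33 and 0.11 ± 0.13 on the log2 scale. The U-box protein Bhs2441_024V1.1 had 0.423 ± 0.166, 54.4 ± 4.78 and 0.629 ± 0.4 CPM. The F-box protein Bhs539_004V1.1 had 0.828 ± 0.421, 35.9 ± 4.1 and 0.731 ± 0.299 CPM. U-box and F-box proteins take part in marking other proteins with ubiquitin.

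The other enzymes of small-molecule metabolism among the 12 strongest, and a histone, are named here. The UDP-glucosyltransferase Bhs8667_001V1.1 had 0.145 ± 0.147, 30.3 ± 1.4 and 0.0444 ± 0.0769 CPM, with a ratio to hydrated leaves of 204 (95% interval 69.5 to 992). Bhs3086_002V1.1, whose match CYP94A1 is a fatty acid hydroxylase in vetch, had 0.0426 ± 0.0737, 30.9 ± 2.63 and 0.405 ± 0.349 CPM and 1 read in the hydrated libraries together. Bhs7891_001V1.1, a dihydroflavonol-4-reductase of the anthocyanin pathway, had 0.0426 ± 0.0737, 34.7 ± 1.98 and 0.815 ± 0.116 CPM and also 1 read in hydrated leaves. The histone Bhs120_034V1.1 (H2B.2) had 0.0916 ± 0.0799, 94.6 ± 8.36 and 2.39 ± 0.85 CPM, a ratio of 955 to hydrated leaves (95% interval 264 to 7889). Intervals of these ratios cover counting error only.

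**Figure D2:**
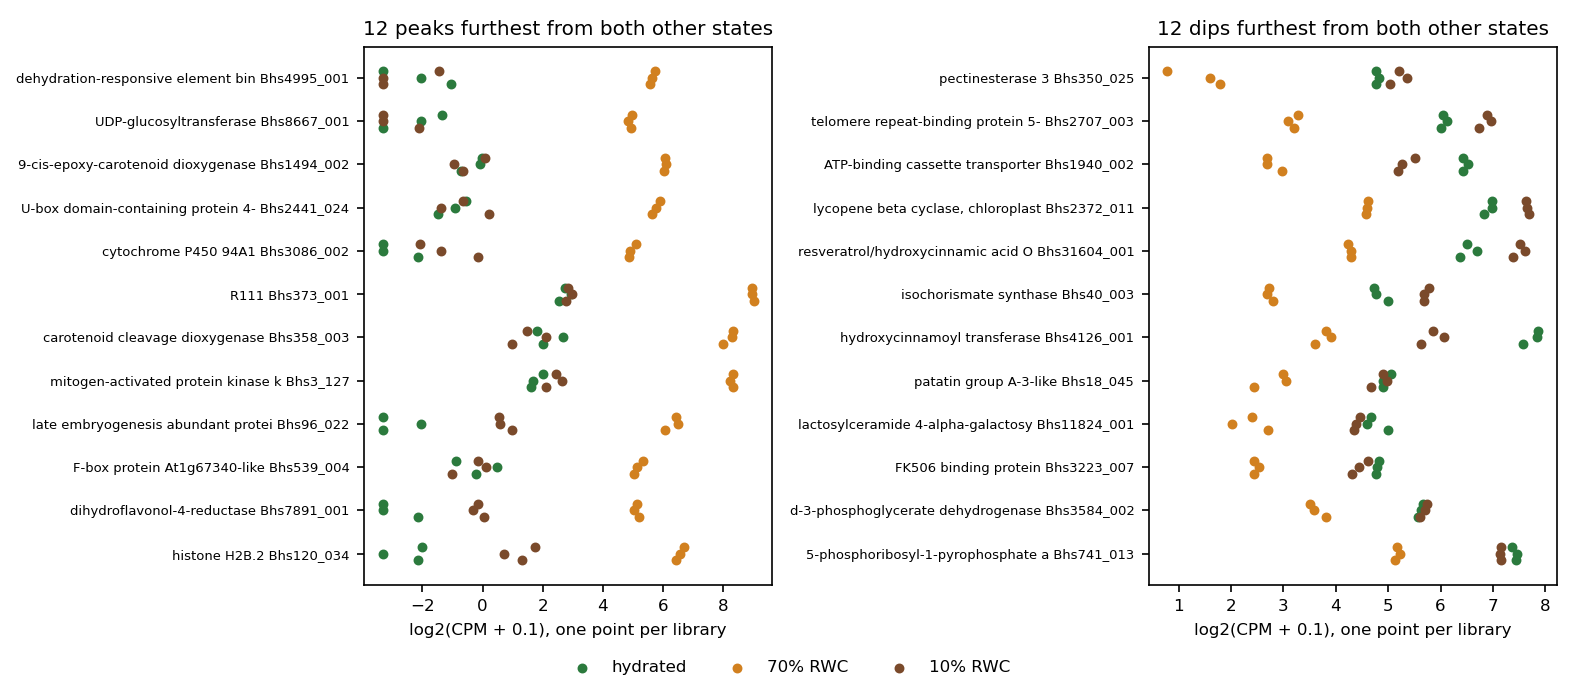
Each row is one of the 12 peaks (left) or 12 dips (right) with the largest smaller difference from both other states, and each point is one library on a log2 scale of CPM plus a constant of 0.1. Only genes with the 3 libraries at 70% RWC (orange) outside the range of the other 6 could be chosen, so this holds in every row. Hydrated leaves (green) and 10% RWC (brown) overlap or lie close in many rows.

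LEA and desiccation-related proteins, which stay soluble and are known to protect other proteins and membranes in dry cells, held the largest share of peaks of the 54 lists. Of 24 tested genes of 27 found by description, 17 were peaks (70.8%, against 13.6% of all genes) and none was a dip, and the median contrast was 3.94 against -0.01 over all genes. The list took up 0.15 ± 0.0103% of CPM in hydrated leaves, 6.71 ± 0.794% at 70% RWC and 3.41 ± 0.386% at 10% RWC. The dehydrin Bhs1066_009V1.1 had 81.9, 86.7 and 79.9 CPM in the hydrated libraries, 9041, 11684 and 11774 CPM at 70% RWC and 6945, 8909.9 and 8614 CPM at 10% RWC. It rose by 7.03 ± 0.14 on the log2 scale from hydrated leaves to 70% RWC and was 0.41 ± 0.11 above 10% RWC (adjusted p = 0.0105). Its 70% RWC libraries did not overlap those of 10% RWC.

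Other LEA peaks fell back further. Bhs941_009V1.1, an LEA-3 protein, had 65.5, 70.2 and 68.8 CPM in the hydrated libraries, 7162, 9515 and 9983 CPM at 70% RWC and 1211, 1704 and 1694 CPM at 10% RWC, all 3 at 70% RWC above the rest. Bhs4_094V1.1, a LEA protein 2, had 43.7 ± 1.76, 4519 ± 180.3 and 747 ± 57.4 CPM, and Bhs68_058V1.1, a seed maturation protein, had 17.2 ± 0.706, 1374 ± 137 and 135 ± 21 CPM. Bhs267_026V1.1 had 9.39 ± 4.25, 8988 ± 403 and 3556 ± 78.3 CPM and stayed high in dry leaves. Bhs96_022V1.1, among the 12 strongest, had 0.0473 ± 0.0819, 81 ± 12.5 and 1.54 ± 0.283 CPM, with a ratio of 1633 to the 1 read in hydrated leaves (95% interval 293 to 64521).

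The 7 LEA genes that were not called had their highest mean at 70% or 10% RWC. Bhs152_037V1.1, a group 3 LEA protein, had 2.12 ± 2.05, 2830.4 ± 285 and 9536 ± 984 CPM and was highest in the driest leaves. Bhs4_093V1.1, Bhs31748_001V1.1 and Bhs222_060V1.1 differed between 70% and 10% RWC by 0.13 ± 0.17, 0.12 ± 0.08 and -0.17 ± 0.23 on the log2 scale, with 0.787 ± 0.878, 1267 ± 144 and 1159.7 ± 193 CPM for Bhs4_093V1.1, 0.768 ± 0.33, 1021 ± 117 and 942 ± 39.7 CPM for Bhs31748_001V1.1 and 0.234 ± 0.167, 787 ± 190.4 and 883 ± 201 CPM for Bhs222_060V1.1. The other 3, Bhs1026_002V1.1, Bhs1227_002V1.1 and Bhs4849_003V1.1, had their highest mean at 10% RWC, with 0.0851, 8.02 and 50.2 CPM for Bhs4849_003V1.1.

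Several LEA genes lay near each other on scaffold 152 (coordinates of the authors' gene models, 1-based, with the assembly version not given in the sources used here). Bhs152_032V1.1 (bases 197339 to 198007) had 170.3 ± 21.7, 8852 ± 1235 and 2544 ± 329 CPM, Bhs152_034V1.1 (201307 to 201940) had 0.999 ± 0.362, 1732 ± 183 and 77.7 ± 8.14 CPM and Bhs152_040V1.1 (249910 to 251038), matched to LEA protein 76, had 787 ± 111, 7777 ± 1082 and 1073 ± 159 CPM. Also peaks between or beside them were Bhs152_031V1.1 (192256 to 195265, 28.3 ± 1.13, 45.7 ± 4.79 and 26.8 ± 1.32 CPM), Bhs152_038V1.1 (245102 to 245633, 240.5 ± 56.4, 5670.1 ± 728 and 1961 ± 336 CPM) and Bhs152_039V1.1 (247069 to 247707, 9.11 ± 2.3, 2775 ± 349.7 and 81.8 ± 16.5 CPM). None of these 3 had an informative description. Bhs152_037V1.1 (236088 to 236650) lay among them without a call. These genes were picked out after their values were seen. Over all scaffolds, 40 runs of exactly 3 neighbouring tested genes were all peaks or all dips, and no run was longer.

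Genes for making ABA and genes for breaking it down were both among the peaks. The list of ABA synthesis and signalling held 20 peaks and 3 dips among 50 tested genes, with a median contrast of 0.68. These were 40.0% and 6.0%, against 13.6% and 8.51% of all genes. Of 3 NCED genes, 2 were peaks. The other NCED peak, Bhs146_046V1.1, had 0.894, 1.42 and 1.47 CPM in the hydrated libraries, 111, 121 and 127 CPM at 70% RWC and 3.99, 4.21 and 5.27 CPM at 10% RWC, high at 70% RWC alone (adjusted p = 5.41e-15). The NCED that was not called, Bhs8_016V1.1, had 0.222 ± 0.199, 0.765 ± 0.194 and 3.5 ± 0.904 CPM. ABA 8'-hydroxylases, which start the breakdown of ABA, held 3 peaks of 5. Bhs2524_024V1.1 (CYP707A1) had 69.1, 64.3 and 61.9 CPM in the hydrated libraries, 150.2, 157 and 152 CPM at 70% RWC and 26.4, 25.7 and 24.3 CPM at 10% RWC, all 3 at 70% RWC above the other 6, by 1.23 ± 0.07 and 2.59 ± 0.07 on the log2 scale (adjusted p = 1.08e-10). Bhs212_003V1.1 had 31.6 ± 1.97, 62.8 ± 4.69 and 0.772 ± 0.0862 CPM, lower in dry leaves than in hydrated ones. The 2 hydroxylases without a call were highest at 10% RWC, with 0.049 ± 0.0849, 19.3 ± 1.34 and 73.6 ± 2.17 CPM for Bhs9011_001V1.1 and 2.02 ± 0.434, 33.2 ± 2.65 and 64.1 ± 3.91 CPM for Bhs4_108V1.1. Neither of 2 zeaxanthin epoxidases, which act earlier in ABA synthesis, was called, and Bhs464_019V1.1 had 576 ± 11.6, 494 ± 9.37 and 268 ± 2.24 CPM.

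Protein phosphatases 2C, several of which hold ABA signalling off in Arabidopsis, held 14 peaks and 3 dips of 33. Bhs71_001V1.1 had 12.4, 12.5 and 12.1 CPM in the hydrated libraries, 545, 514 and 521 CPM at 70% RWC and 83.2, 81.9 and 80.5 CPM at 10% RWC, with no overlap between states, and differed by 5.42 ± 0.07 and 2.69 ± 0.06 on the log2 scale (adjusted p = 1.29e-15). Bhs2558_002V1.1 had 15.9 ± 0.946, 317 ± 19.2 and 71.3 ± 2.89 CPM, Bhs2869_002V1.1 had 11 ± 1.53, 160.1 ± 3.44 and 33.2 ± 3.72 CPM and Bhs1780_001V1.1 had 12.7 ± 1.97, 111 ± 19 and 18.6 ± 2.23 CPM. The 2 genes matched to ABI2, a core phosphatase of the pathway, were not called: Bhs2562_004V1.1 had 9.06 ± 0.69, 65.1 ± 7.96 and 76.3 ± 3.76 CPM and Bhs22_009V1.1 17.2 ± 1.25, 46.6 ± 2.82 and 67.8 ± 3.84 CPM. Bhs862_005V1.1 had 0.455 ± 0.178, 119 ± 8.66 and 449 ± 18.3 CPM, highest in dry leaves. Of 2 ABA receptor genes, Bhs45_143V1.1 was a peak with 9.37 ± 1.42, 45.9 ± 0.626 and 20.9 ± 1.76 CPM. The other receptor gene was not called, had a contrast below zero and was highest at 10% RWC. The median contrast of the 2 was -0.76. Of 3 kinases of the SnRK2 type, which the phosphatases hold inactive, Bhs1916_008V1.1 was a peak with 109 ± 12.3, 249 ± 10.4 and 157 ± 11.6 CPM.

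Of 13 DREB genes, 4 were peaks and none a dip. Besides Bhs4995_001V1.1, Bhs176_045V1.1 had 0.049 ± 0.0849, 20.9 ± 3.63 and 1.18 ± 0.316 CPM, Bhs2219_001V1.1 had 0.369 ± 0.0796, 14.1 ± 1.13 and 1.04 ± 0.137 CPM and Bhs649_070V1.1 had 12.8 ± 2.31, 48.1 ± 1.65 and 17 ± 0.676 CPM. Bhs177_007V1.1, highest at 10% RWC, was not called and had 5.41 ± 0.624, 116 ± 2.06 and 258 ± 9.5 CPM.

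**Figure D3:**
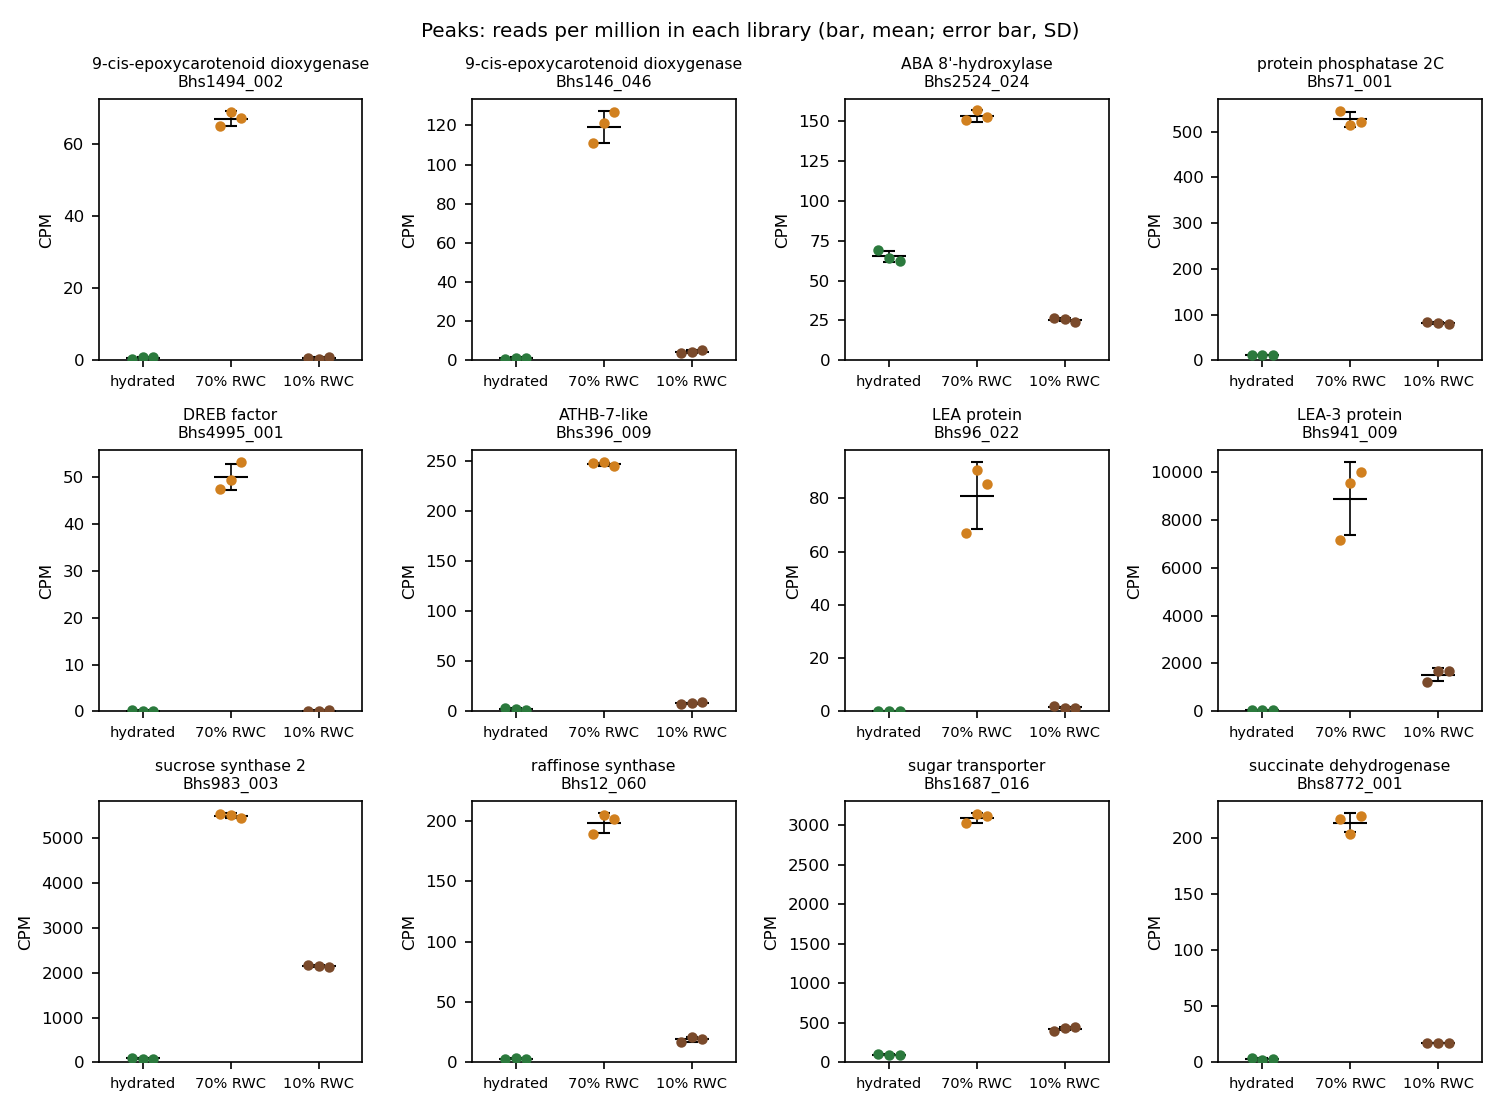
Each panel shows one gene whose level peaked at 70% RWC, with CPM on the y axis from 0, a point for each library, a bar for the mean of 3 and an error bar for the SD. In every panel the 3 points at 70% RWC are the highest, and the level left at 10% RWC ranges from near that of hydrated leaves to a large part of the maximum.

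Enzymes that make sucrose and raffinose were among the peaks. The list of sucrose and raffinose-family sugars held 8 peaks and 2 dips of 25. Sucrose synthase Bhs983_003V1.1, which splits or makes sucrose, had 91.8, 86 and 87.2 CPM in the hydrated libraries, 5553, 5521 and 5450.2 CPM at 70% RWC and 2172, 2161 and 2124 CPM at 10% RWC. The states did not overlap, and it was 5.96 ± 0.07 above hydrated leaves and 1.36 ± 0.06 above 10% RWC on the log2 scale (adjusted p = 4.32e-12). The sucrose-phosphate synthase Bhs998_002V1.1, which makes the precursor of sucrose, had 59.1 ± 3.5, 976 ± 6.11 and 218 ± 3.75 CPM. Raffinose-family enzymes add galactose from galactinol to sucrose, and 4 of 10 were peaks and 1 a dip. The neighbouring raffinose synthases Bhs12_060V1.1 and Bhs12_061V1.1 had 3.18 ± 0.743, 198 ± 8.11 and 19.1 ± 1.87 CPM and 1.52 ± 0.0996, 143 ± 21.1 and 14.7 ± 3.46 CPM. Stachyose synthase Bhs33_062V1.1 had 616 ± 44.9, 1409 ± 56.9 and 56.1 ± 4.65 CPM and fell far below its hydrated level in dry leaves. The galactinol synthase Bhs17782_001V1.1 was not called and had 8916 ± 388, 5681 ± 272 and 6009 ± 321 CPM.

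Transporters of sugars, amino acids and nitrate held 25 peaks and 4 dips of 82 (30.5% and 4.88%, against 13.6% and 8.51% of all genes). The sugar transporter Bhs1687_016V1.1 had 105, 91 and 98.2 CPM in the hydrated libraries, 3024, 3137 and 3118 CPM at 70% RWC and 403, 432 and 442 CPM at 10% RWC, without overlap (adjusted p = 2.78e-15). Among amino acid enzymes, glutamate decarboxylase Bhs1940_033V1.1, which makes gamma-aminobutyrate, had 12.5, 11.9 and 12.9 CPM in the hydrated libraries, 1014, 989 and 986 CPM at 70% RWC and 41.1, 45.3 and 44.3 CPM at 10% RWC, with the 70% RWC libraries far above the rest (adjusted p = 1.02e-17). Asparagine synthetase Bhs3371_003V1.1, which stores nitrogen as asparagine, had 236 ± 14.9, 1867 ± 38.8 and 759 ± 24.7 CPM. The list of proline and amino acid metabolism as a whole held 6 peaks and 3 dips of 44, close to the shares over all genes. Starch and trehalose metabolism held 6 peaks and 4 dips of 29. Its R1 protein Bhs332_004V1.1, the glucan dikinase that starts starch breakdown, had 653 ± 21.8, 1099 ± 40.1 and 286 ± 13.7 CPM, while the trehalose-6-phosphate synthase Bhs146_026V1.1 was a dip with 167 ± 4.65, 80.6 ± 1.61 and 192 ± 11.1 CPM.

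Glycolysis and alcohol fermentation held 15 peaks and 6 dips of 54 (27.8% and 11.1%, against 13.6% and 8.51% of all genes). The summed share of this list was highest in hydrated leaves, with 1.48 ± 0.0768% of CPM. It fell to 1.0 ± 0.007% at 70% RWC and 0.729 ± 0.008% at 10% RWC. Enolases, phosphofructokinases and pyruvate kinases, which work in the payoff and control steps of glycolysis, held 8 peaks and no dip of 16. By mean level, 9 of the 16 were highest at 70% RWC, 6 in hydrated leaves and 1 at 10% RWC. Pyruvate kinase Bhs414_024V1.1 had 218, 193 and 186 CPM in the hydrated libraries, 1019, 1008 and 975 CPM at 70% RWC and 272, 274 and 263 CPM at 10% RWC, with all 3 libraries at 70% RWC above the other 6 (adjusted p = 2.46e-13). Phosphofructokinase Bhs461_004V1.1 had 1.1 ± 0.0656, 473 ± 32.6 and 161 ± 19.2 CPM, and enolase Bhs5618_004V1.1 had 543 ± 26.2, 976 ± 20.4 and 387 ± 18 CPM. The alcohol dehydrogenases differed among themselves: Bhs113_021V1.1 was a peak with 5.39 ± 0.41, 750.2 ± 56 and 436 ± 19.8 CPM, and Bhs13_122V1.1 was a dip with 469.5 ± 8.65, 82.5 ± 2.3 and 171 ± 9.3 CPM. Mitochondrial respiration held 14 peaks and 1 dip of 42 (33.3% and 2.38%). Among its peaks were the ATP synthase subunit Bhs649_095V1.1 with 155 ± 1.68, 258 ± 4.54 and 124 ± 2.69 CPM, and the succinate dehydrogenase Bhs8772_001V1.1 with 3.12 ± 0.575, 214 ± 8.31 and 17.3 ± 0.103 CPM.

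Membrane lipid genes held 15 peaks and 2 dips of 37 (40.5% and 5.41%, against 13.6% and 8.51% of all genes). Phospholipases D cut membrane lipids to phosphatidic acid, a signal in drought, and 5 of 10 were peaks and 1 a dip. Phospholipase D delta Bhs1465_001V1.1 had 71, 64 and 64.6 CPM in the hydrated libraries, 249.7, 221 and 225 CPM at 70% RWC and 90.3, 93.3 and 79.6 CPM at 10% RWC, with no overlap (adjusted p = 8.1e-11). The phospholipase D dip, Bhs33_027V1.1, had 9.55 ± 1.06, 0.575 ± 0.245 and 1.87 ± 0.701 CPM. Diacylglycerol kinases make the same lipid by another route and held 4 peaks of 6, among them Bhs5_001V1.1 with 61.3, 61.4 and 64.9 CPM in the hydrated libraries, 405, 358 and 360.4 CPM at 70% RWC and 65.5, 59 and 62 CPM at 10% RWC. The libraries at 70% RWC were the highest, and 10% RWC differed from hydrated leaves by -0.01 ± 0.07 on the log2 scale.

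Vesicle trafficking held 31 peaks and 2 dips of 100 (31.0% and 2.0%, against 13.6% and 8.51% of all genes). Its vacuolar protein sorting genes, which steer cargo to the vacuole, held 12 peaks and no dip of 27. Bhs361_042V1.1 had 36.5 ± 2.21, 314 ± 23.8 and 122 ± 4.0 CPM, and Bhs8655_001V1.1 had 68.8 ± 2.76, 153 ± 1.03 and 58.7 ± 4.22 CPM. Calcium sensors and transport held 30 peaks and 5 dips of 102 (29.4% and 4.9%). The cation/calcium exchanger Bhs3739_011V1.1 had 49.5 ± 5.61, 358 ± 42.4 and 71.8 ± 9.84 CPM. Of 7 calcium-transporting ATPases, which pump calcium out of the cytosol, 3 were peaks, among them Bhs251_024V1.1 with 69.9 ± 7.27, 145 ± 5.22 and 35.3 ± 4.51 CPM.

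Heat stress factors held 6 peaks and 1 dip of 18, NAC factors 7 and 1 of 26, WRKY factors 9 and 2 of 36, and ethylene synthesis and ERF factors 12 and 8 of 55. MYB factors held 7 and 4 of 44 (15.9% and 9.09%), bZIP and homeodomain factors 7 and 5 of 44 (15.9% and 11.4%) and zinc finger factors 9 and 11 of 151 (5.96% and 7.28%), against 13.6% and 8.51% of all genes. Differences between these families were not tested. The WRKY factor Bhs4_149V1.1 had 16.1, 21.3 and 17.6 CPM in the hydrated libraries, 239, 305 and 299 CPM at 70% RWC and 6.39, 6.45 and 6.08 CPM at 10% RWC, with all libraries at 70% RWC above the rest (adjusted p = 4.97e-14), and Bhs4126_008V1.1 had 15.3 ± 3.3, 189 ± 11.5 and 13.4 ± 2.66 CPM. The homeodomain gene Bhs396_009V1.1, matched to ATHB-7, an ABA-responsive factor of Arabidopsis, had 2.94, 2.84 and 1.62 CPM in the hydrated libraries, 248, 249 and 245 CPM at 70% RWC and 7.72, 7.99 and 8.92 CPM at 10% RWC. It stood far above all 6 other libraries (adjusted p = 2.88e-16). The heat stress factor Bhs3828_002V1.1 had 226 ± 25.2, 632 ± 42 and 77.1 ± 11.8 CPM. Heat shock proteins and chaperones, which such factors are known to switch on, held 17 peaks and 4 dips of 114 (14.9% and 3.51%), a share of peaks near that of all genes.

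Proteasome genes held 10 peaks and 1 dip of 32, while ubiquitin ligases and F-box proteins held 41 and 21 of 255 (16.1% and 8.24%), near the background. The ligase Bhs49_018V1.1, matched to PUB23, had 5.9 ± 0.329, 290.2 ± 5.53 and 83.6 ± 3.5 CPM. Defence genes held 13 peaks and 4 dips of 65, including PR10 Bhs1973_001V1.1 with 4006 ± 5.64, 8570.4 ± 170.0 and 2217 ± 61.2 CPM and class IV chitinase Bhs342_021V1.1 with 961 ± 25.9, 6799 ± 16.5 and 2749.9 ± 58.5 CPM. Small-molecule glycosyltransferases held 27 and 11 of 106, including the flavanone rhamnosyltransferase Bhs4478_002V1.1 with 4.28 ± 0.4, 627 ± 36.3 and 36.6 ± 0.703 CPM. Antioxidant enzymes held 15 and 5 of 71. Monodehydroascorbate reductase Bhs6432_001V1.1, which regenerates ascorbate, was a peak with 593 ± 25.4, 1979.8 ± 64.1 and 1119.5 ± 39 CPM, and catalase Bhs4509_001V1.1, which removes hydrogen peroxide, was a dip with 3301 ± 98.8, 1825 ± 151 and 3611 ± 203 CPM. Early light-induced proteins, which bind pigment in stressed plastids, held 2 peaks of 13, and their summed share was highest at 10% RWC (0.00661 ± 0.000404%, 0.155 ± 0.00633% and 0.497 ± 0.0194% of CPM).

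Some peaks in the cell wall lists were large. Pectinesterase Bhs1456_002V1.1 had 17.5, 22.7 and 23.4 CPM in the hydrated libraries, 1006, 1326 and 1365 CPM at 70% RWC and 41.8, 59.3 and 56.9 CPM at 10% RWC, with the 70% RWC libraries on top (adjusted p = 1.17e-08). The xyloglucan endotransglucosylase Bhs861_006V1.1, which cuts and rejoins wall polymers, had 6.31 ± 1.04, 595 ± 36.2 and 41.5 ± 6.76 CPM. Pectin-modifying enzymes as a list held 4 peaks and 3 dips of 45 (8.89% and 6.67%). Cell wall synthesis and loosening held 3 and 3 of 55 (5.45% each). Over all genes the shares were 13.6% and 8.51%.

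The 12 strongest dips were ranked in the same way. Bhs350_025V1.1, a pectinesterase, had 27.2, 28.2 and 27.2 CPM in the hydrated libraries, 3.34, 2.93 and 1.62 CPM at 70% RWC and 32.9, 41.1 and 37 CPM at 10% RWC. All 3 libraries at 70% RWC were below the other 6, by -3.37 ± 0.18 against hydrated leaves and -3.80 ± 0.17 against 10% RWC on the log2 scale (adjusted p = 6.76e-11). Bhs2707_003V1.1, a telomere repeat-binding protein, had 66.6 ± 2.8, 8.99 ± 0.617 and 116 ± 9.66 CPM, and the ABC transporter Bhs1940_002V1.1 had 88.1 ± 3.85, 6.81 ± 0.853 and 40.1 ± 4.96 CPM. Bhs31604_001V1.1, a glucosyltransferase of phenolic acids, had 92.3 ± 10.1, 19.2 ± 0.442 and 182 ± 15 CPM, and Bhs4126_001V1.1, a hydroxycinnamoyl transferase of the phenylpropanoid pathway, had 219 ± 24.2, 13.7 ± 1.44 and 57.8 ± 8.95 CPM. Bhs40_003V1.1, isochorismate synthase, an enzyme of salicylate synthesis, had 28.5 ± 2.99, 6.53 ± 0.265 and 52.5 ± 1.77 CPM.

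In the next 5 strong dips the outer states lay near each other, with log2 differences of 10% RWC from hydrated leaves between -0.37 and 0.07. Bhs741_013V1.1, an amidotransferase that starts purine synthesis, had 174, 175 and 164 CPM in the hydrated libraries, 35.1, 37.3 and 35.9 CPM at 70% RWC and 142, 141 and 143 CPM at 10% RWC. The libraries at 70% RWC lay below all others, and the outer states differed by -0.27 ± 0.06 on the log2 scale. Bhs3584_002V1.1, a phosphoglycerate dehydrogenase of serine synthesis, had 49 ± 1.74, 12.4 ± 1.49 and 51.5 ± 2.42 CPM. The patatin-like Bhs18_045V1.1 had 30.9 ± 2.0, 7.1 ± 1.58 and 28.8 ± 3.0 CPM, Bhs11824_001V1.1 (a galactosyltransferase) 27.1 ± 4.21, 5.17 ± 1.22 and 21.1 ± 0.899 CPM and the FK506 binding protein Bhs3223_007V1.1 27.7 ± 0.392, 5.43 ± 0.239 and 21.8 ± 2.38 CPM.

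Translation factors and aminoacyl-tRNA synthetases held 4 peaks and 20 dips of 93 (4.3% and 21.5%, against 13.6% and 8.51% of all genes). Aminoacyl-tRNA synthetases, which load amino acids onto transfer RNA, held 1 peak and 10 dips of 32. Threonyl-tRNA synthetase Bhs62_008V1.1 had 226, 197 and 196 CPM in the hydrated libraries, 64.4, 54.9 and 53.9 CPM at 70% RWC and 221, 177 and 192 CPM at 10% RWC. All 3 libraries at 70% RWC were below the other 6, and it differed by -1.84 ± 0.09 and -1.77 ± 0.09 on the log2 scale (adjusted p = 1.83e-10). Tyrosyl-tRNA synthetase Bhs316_034V1.1 had 42.2 ± 4.0, 10.9 ± 1.21 and 38.1 ± 4.31 CPM, while the single peak, Bhs158_054V1.1, had 79.7 ± 2.66, 92.1 ± 6.08 and 63 ± 2.61 CPM. Chloroplast elongation factor G Bhs3841_001V1.1 had 1149 ± 96.6, 309 ± 10.9 and 568 ± 33.1 CPM and did not return to its hydrated level.

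Organelle ribosomal proteins held no peak and 6 dips of 37, RNA helicases none and 6 of 43, cytosolic ribosomal proteins none and 6 of 103, and ribosome biogenesis none and 3 of 36. In the first, Bhs1858_012V1.1 (50S protein L1) had 22.3 ± 1.99, 9.48 ± 0.884 and 17.6 ± 1.53 CPM. The DEAD-box helicase Bhs133_030V1.1 had 59 ± 2.47, 31.8 ± 2.07 and 82.2 ± 4.97 CPM. For cytosolic ribosomal proteins the 5.83% of dips was below the 8.51% over all genes, and 74 of the 103 lay between the outer states. Pentatricopeptide repeat proteins, which process organelle RNA, held 21 peaks and 20 dips of 239 (8.79% and 8.37%), the dips near the share over all genes.

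The plastid pathway that makes isoprenoid units (the MEP pathway) and the steps beyond it dipped in part. Of 12 tested MEP genes, 6 were dips and none a peak. The reductoisomerase Bhs200_017V1.1 had 342, 365 and 339 CPM in the hydrated libraries, 113, 113 and 117 CPM at 70% RWC and 239, 254 and 233 CPM at 10% RWC, with no overlap (adjusted p = 1.81e-10). The synthase Bhs6_074V1.1, the entry step, had 59.7 ± 9.44, 32.1 ± 1.81 and 275 ± 21 CPM, and the reductase Bhs4778_002V1.1, the last step, had 114 ± 17, 83.1 ± 6.96 and 512 ± 47.6 CPM, both highest in dry leaves. The synthase Bhs2932_011V1.1 had 1067 ± 24.4, 565 ± 6.59 and 679.8 ± 2.66 CPM. Of 7 enzymes of carotenoid synthesis, which draw on this pathway, 2 were dips and 1 a peak. Lycopene beta cyclase Bhs2372_011V1.1 had 114, 126 and 127 CPM in the hydrated libraries, 23.8, 24 and 24.4 CPM at 70% RWC and 206, 202 and 199.5 CPM at 10% RWC. It was lowest in all 3 libraries at 70% RWC (adjusted p = 6.92e-14). Lycopene epsilon cyclase Bhs373_003V1.1 had 99.6 ± 2.52, 84.4 ± 3.48 and 151 ± 2.96 CPM, and phytoene synthase Bhs1_079V1.1, the entry enzyme, was a peak with 185 ± 3.94, 249 ± 4.84 and 103 ± 4.72 CPM.

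The list of chlorophyll synthesis and breakdown held 3 peaks and 3 dips of 13 (23.1% each). Glutamyl-tRNA reductase Bhs865_008V1.1, the first committed step of tetrapyrrole synthesis, had 907 ± 24.1, 198 ± 13.3 and 368 ± 12.9 CPM. The next enzyme, the aminomutase Bhs911_008V1.1, which is not in the list, was also a dip with 102 ± 3.2, 48 ± 5.09 and 176 ± 16 CPM. The cyclase Bhs32_068V1.1 had 2654 ± 8.98, 363 ± 9.17 and 548 ± 14.8 CPM. Pheophorbide a oxygenase Bhs1906_004V1.1, which opens the chlorophyll ring during breakdown, was a peak with 285 ± 30.3, 889 ± 46.7 and 463 ± 40.7 CPM, and so was the stay-green protein Bhs427_016V1.1 with 38.4 ± 0.688, 634 ± 37.2 and 379 ± 36.2 CPM. Photosystem and light-harvesting genes held no peak and 1 dip of 40, and 31 of the 40 lay between the outer states. Calvin cycle genes held neither among 11.

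**Figure D4:**
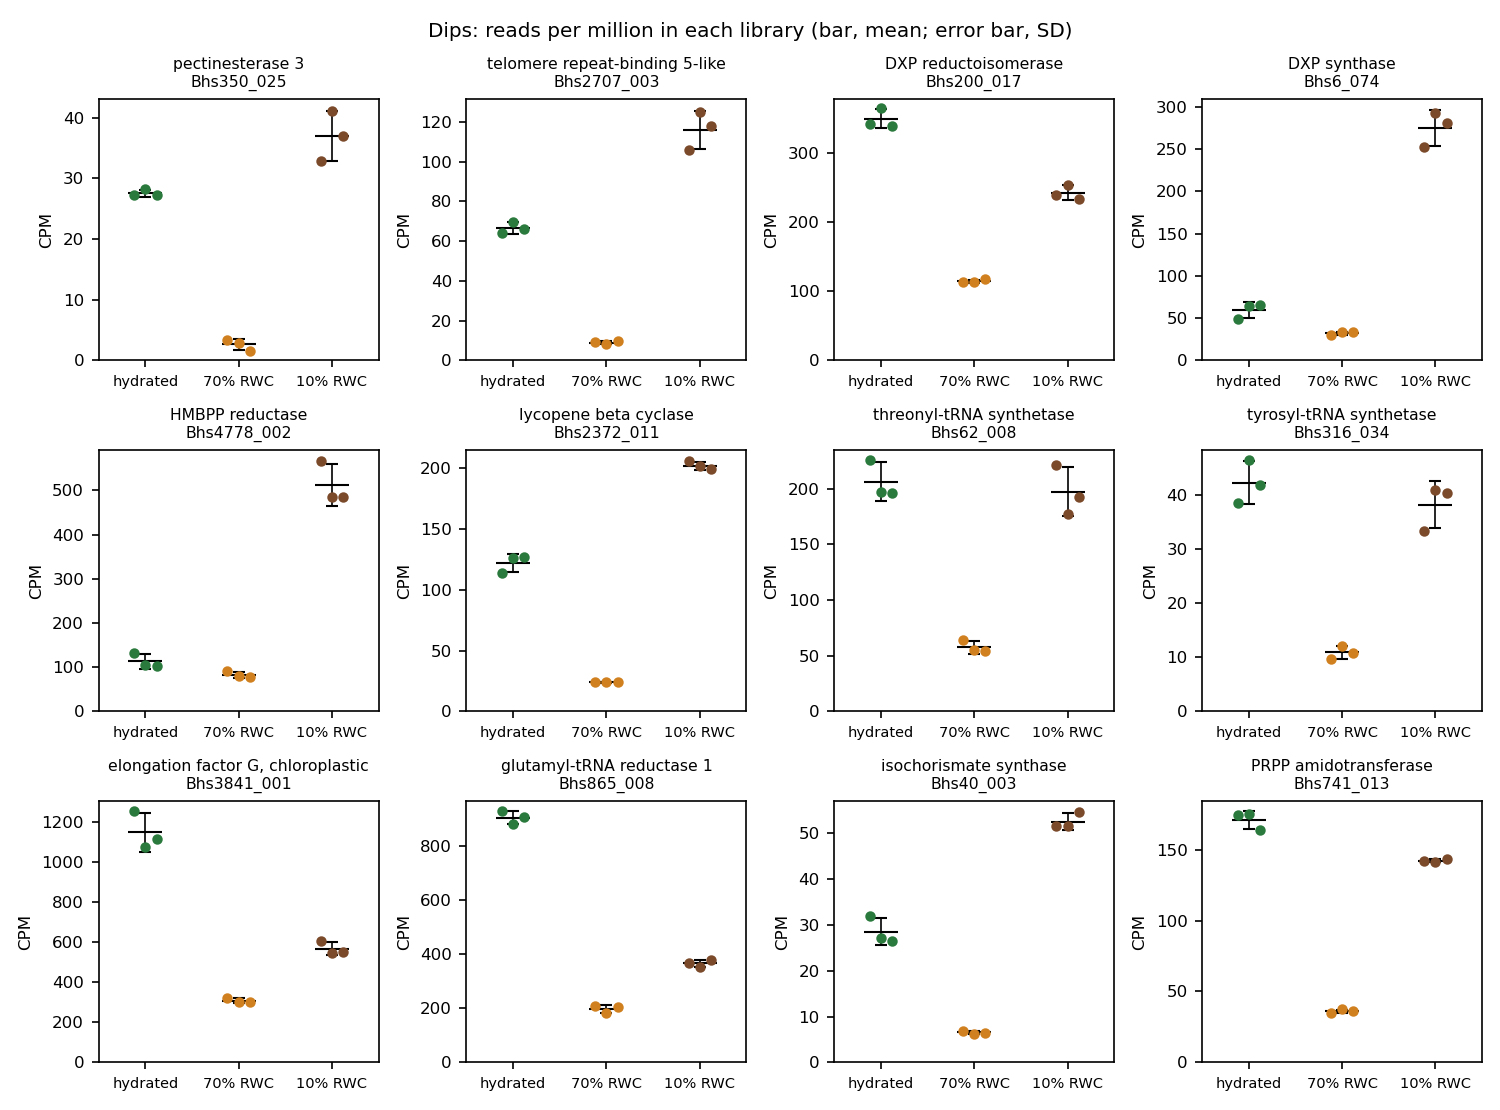
Each panel shows one gene whose level dipped at 70% RWC, with CPM on the y axis from 0, a point for each library, a bar for the mean of 3 and an error bar for the SD. In every panel the 3 points at 70% RWC are the lowest, and the level at 10% RWC ends below, near or above that of hydrated leaves.

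Clock and light-receptor genes held 2 peaks and 6 dips of 27. GIGANTEA Bhs3094_001V1.1 was a peak with 173 ± 3.37, 587 ± 22.2 and 373 ± 6.82 CPM. The response regulator Bhs98_057V1.1, matched to APRR5, was a dip with 48 ± 2.23, 19.7 ± 2.37 and 210.3 ± 12.6 CPM, while the other APRR5 match, Bhs1115_008V1.1, had 94.9 ± 12.5, 40.7 ± 1.92 and 31.9 ± 3.72 CPM and no call. Jasmonate and oxylipin enzymes held 1 peak and 3 dips of 16. Allene oxide synthase Bhs168_056V1.1, an early enzyme of jasmonate synthesis, was a dip with 41.6 ± 0.401, 8.75 ± 2.07 and 24.5 ± 1.45 CPM, and the oxophytodienoate reductase Bhs2663_005V1.1, a later one, was a peak with 31.3 ± 0.668, 47.4 ± 1.23 and 2.48 ± 0.738 CPM. The DELLA protein Bhs6531_002V1.1, a repressor of gibberellin responses, was a dip with 100.5 ± 6.35, 44.5 ± 4.39 and 91.3 ± 5.37 CPM. The GRAS protein Bhs1599_017V1.1, described as chitin-inducible and gibberellin-responsive, was a peak, 4.09 ± 0.08 above hydrated leaves and 4.57 ± 0.09 above 10% RWC on the log2 scale.

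All 4 tested epidermal markers lay below both states, and 2 were dips: PROTODERMAL FACTOR 2 Bhs1452_010V1.1 had 14.9 ± 1.85, 2.23 ± 0.739 and 5.92 ± 1.69 CPM and cutin deficient 2 Bhs5100_009V1.1 had 31.5 ± 0.392, 15.9 ± 2.63 and 27.5 ± 3.75 CPM. Their summed level was 0.0126 ± 0.00121% of CPM in hydrated leaves, 0.00465 ± 0.000512% at 70% RWC and 0.00696 ± 0.000748% at 10% RWC. Of 3 guard cell markers none was called, of 3 phloem markers 1 was a peak, of 10 xylem markers none was called, and no trichome marker was tested. Their summed levels also differed between states, in the same order. Guard cell markers had 0.0037 ± 0.000289, 0.00151 ± 7.13e-05 and 0.000763 ± 9.29e-05% of CPM. Phloem markers had 0.00679 ± 0.000267, 0.141 ± 0.00639 and 0.177 ± 0.00854%, and xylem markers 0.0218 ± 0.000487, 0.0522 ± 0.0046 and 0.142 ± 0.0144%. Markers of dividing cells held 8 peaks and 1 dip of 38 (21.1% and 2.63%, against 13.6% and 8.51% of all genes), and 24 of the 38 lay between the outer states. The part of cell type shares in the counts above was not tested.

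**Figure D5:**
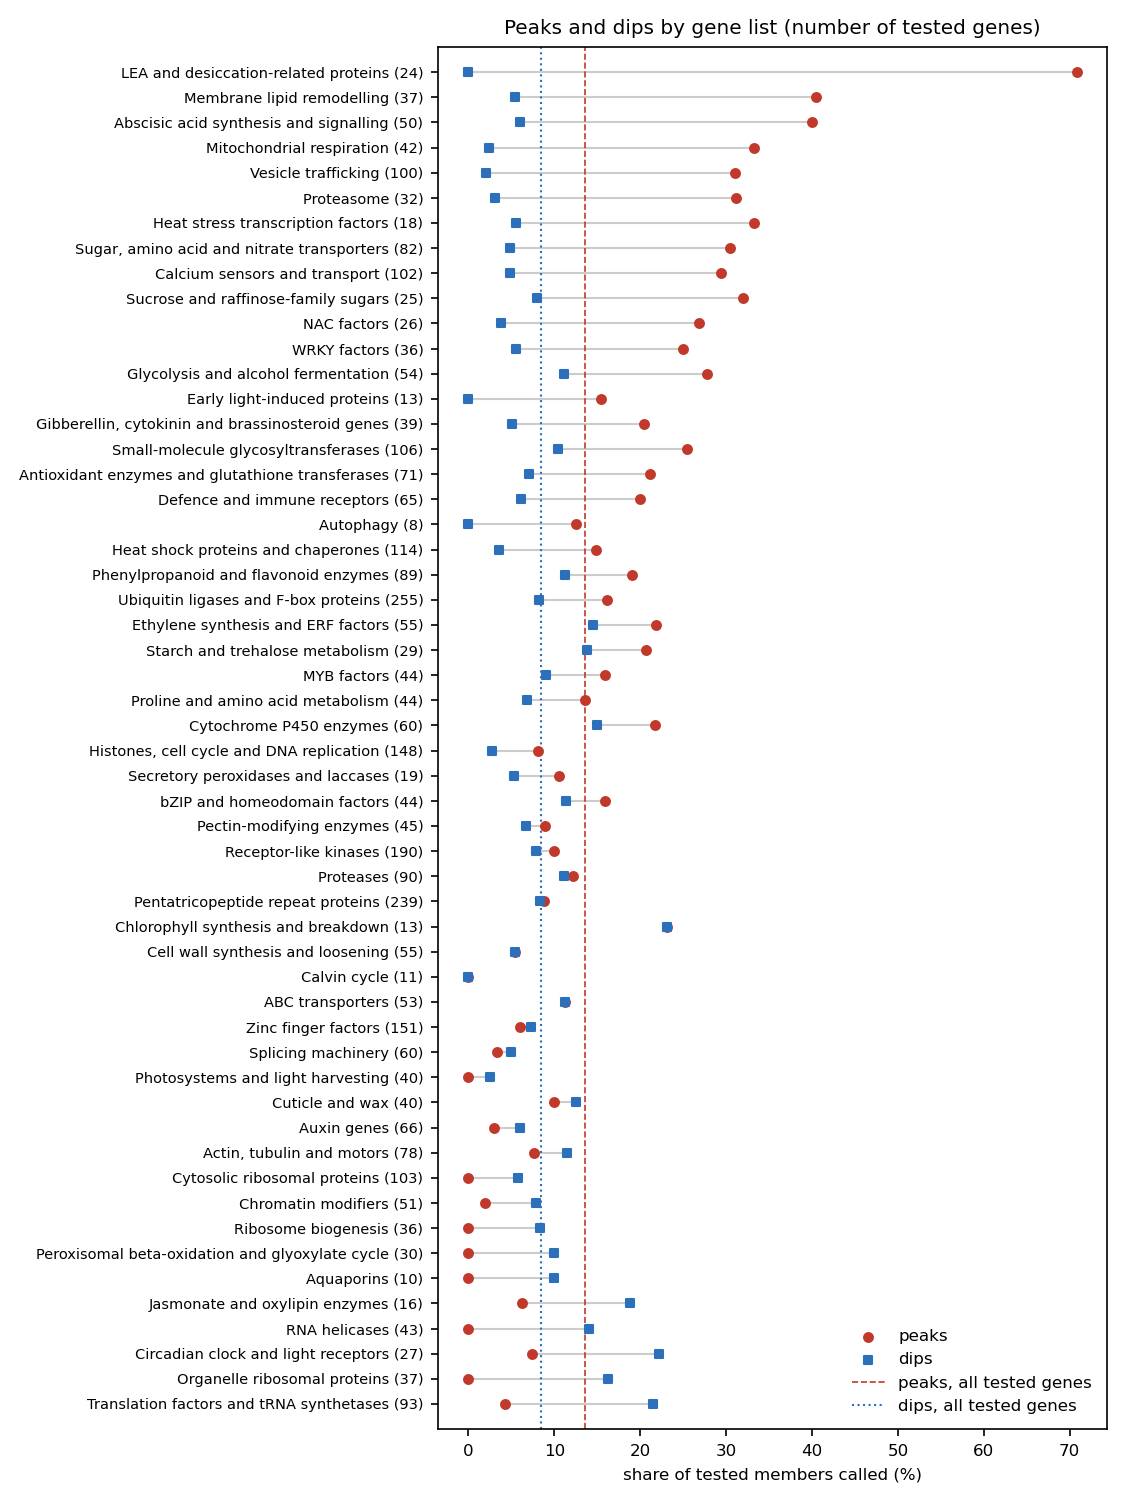
For each list of genes, a red circle gives the percent of tested members that were peaks and a blue square the percent that were dips. A grey line joins the circle and the square. Dashed and dotted lines mark the percent over all 14585 genes (13.6 for peaks and 8.51 for dips). LEA proteins stand furthest to the peak side at 70.8%, and translation factors and aminoacyl-tRNA synthetases reach 21.5% dips with 4.3% peaks.

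Gene ontology (GO) terms, as listed in the authors' files, were read the same way over 500 terms with 10 to 500 tested genes. Of genes with a component term 14% were peaks and 9.45% dips, with a function term 14.1% and 9.32%, with a process term 14.6% and 9.35%, and with no term 12.1% and 7.05%. Among the terms with the largest shares of peaks was endosome transport, with 7 peaks and no dip of 10. It held subunits matched to VPS26 and VPS35, parts of the retromer that returns cargo from endosomes, such as Bhs1115_015V1.1 with 30.2 ± 0.0619, 74.2 ± 2.5 and 29.6 ± 1.21 CPM. The term hexose metabolic process held 12 peaks and no dip of 24, among them the phosphoglucomutase Bhs19_001V1.1 with 81.5 ± 7.22, 211 ± 7.98 and 97 ± 2.26 CPM, and acetylglucosaminyltransferase activity held 7 and none of 12. Oligosaccharyl transferase activity, phospholipid transporter activity and endosome each held 5 peaks and no dip of 10, and intramolecular oxidoreductase activity held 6 and none of 12. The oligosaccharyl transferase and oxidoreductase terms shared protein disulfide isomerases, which fold proteins in the endoplasmic reticulum, such as Bhs1374_008V1.1 with 211 ± 4.37, 329 ± 24.2 and 207 ± 9.59 CPM. Among phospholipid transporters, Bhs837_020V1.1, a phospholipid-transporting ATPase, had 57 ± 1.42, 159 ± 4.2 and 46.9 ± 1.12 CPM.

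On the side of dips, terpenoid metabolic process held 6 dips and no peak of 12, and the 6 were the MEP genes above. Porphyrin biosynthesis held 9 dips and 1 peak of 27, where porphobilinogen deaminase Bhs3_041V1.1 had 152 ± 3.68, 11.7 ± 0.729 and 17.1 ± 2.48 CPM. The related term chlorophyll biosynthetic process, picked after its values were seen, held 2 dips and 3 peaks of 12. Its median contrast was 0.37. Chosen after their values were seen, the term translation held 16 dips and 7 peaks of 115. The component term ribosome held 5 dips and 10 peaks of 54 (9.26% and 18.5%). Related component terms did not share these peaks. Large ribosomal subunit held 1 dip and 0 peaks of 42, small ribosomal subunit 1 and 0 of 22, and ribonucleoprotein complex 16 and 1 of 190. The term tRNA aminoacylation held 12 dips and 1 peak of 38. DNA topoisomerase activity held 4 dips and 1 peak of 11, plasma membrane part 4 and 2 of 12, carbon-nitrogen ligase activity 5 and 2 of 16 and amylase activity 3 and 1 of 10. The proteasome complex term held both 6 peaks and 3 dips of 10, and 2 of those dips, Bhs190_009V1.1 with 177 ± 6.49, 95 ± 2.48 and 143 ± 3.63 CPM and Bhs750_004V1.1 with 65.9 ± 4.39, 38.1 ± 1.45 and 99.8 ± 5.29 CPM, are described as copper-transporting ATPases. Terms share genes, so these counts are not independent of each other or of the lists above.

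Members without an informative description included some of the sharpest changes. Bhs378_026V1.1 had 0.0, 0.0 and 0.0 CPM in the hydrated libraries, 46.3, 52.8 and 55.1 CPM at 70% RWC and 0.0, 0.0 and 0.0 CPM at 10% RWC. No read fell in the other 6 libraries, so it was at least 346-fold higher than in hydrated leaves and at least 358-fold higher than at 10% RWC, against a floor of 3 reads over each group. Bhs965_005V1.1 had 0.69 ± 0.107, 77.2 ± 2.24 and 1.32 ± 0.352 CPM, Bhs32_105V1.1 1.35 ± 0.242, 99.1 ± 11.7 and 1.41 ± 0.171 CPM and Bhs146_027V1.1 1.04 ± 0.338, 41.1 ± 0.742 and 0.773 ± 0.0937 CPM, with log2 differences of 10% RWC from hydrated leaves of 0.91 ± 0.35, 0.07 ± 0.33 and -0.45 ± 0.37. Among dips, Bhs18_003V1.1 had 59.9 ± 3.79, 7.56 ± 1.46 and 62 ± 1.82 CPM and Bhs4_017V1.1 38.4 ± 2.91, 3.89 ± 0.184 and 41.8 ± 0.649 CPM, with 10% RWC within 0.05 ± 0.09 and 0.12 ± 0.09 of hydrated leaves on the log2 scale. In Bhs378_021V1.1, with 142 ± 10.5, 8.05 ± 1.26 and 36.4 ± 6.91 CPM, 10% RWC stayed below hydrated leaves. Of the peaks 1164 had an informative description, and of the dips 685.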

How the data were processed

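The deposited tables hold, per the file headers, counts of uniquely aligned reads for each gene of a library, with the gene's position, best database match and GO terms. The aligner, assembly version, strand setting and read filters are not given in the sources used here. Genes left out of a library's table were set to 0. The authors' deposited table of comparisons was not used.

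Counts were fitted with edgeR 4.0.16 (R 4.3.3, limma 3.58.1) after TMM scaling and filterByExpr, with 1 mean per state over 9 libraries and robust quasi-likelihood dispersion. Calls used an adjusted p under 0.05 over 14585 genes. CPM were computed from the counts with TMM-scaled totals. DESeq2 1.42.0, other scalings, filters and left-out libraries were alternatives. Tables and figures were made with Python 3.11.15, pandas 2.3.3, NumPy 2.4.6, SciPy 1.17.1 and matplotlib 3.10.9.

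Members and lists were chosen with earlier results of these data known. Lists were found by words in the descriptions. Named by rule were the 12 peaks and 12 dips with the largest smaller difference (described genes of at least 20 CPM on the higher side, libraries not overlapping), up to 2 genes per list by CPM with at least 1.5-fold, 5 undescribed genes in each direction and 8 GO terms in each direction. Smaller families and all other genes were chosen after their values were seen. Of 1028 gene models named by the rule or belonging to a printed list or family, none overlapped another model with reads.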

Additional observations from a re-analysis of the deposited data

How the results depend on the processing

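All alternatives kept the counts of peaks and dips within 1.5 times the values above, except the requirement of a 2-fold difference from both states, which left 860 peaks and 384 dips. Leaving out one library at a time gave 1828 to 2044 peaks, 1000 to 1229 dips and 9074 to 9868 genes called by the contrast. Across the other settings peaks numbered 1649 to 2252 and dips 943 to 1522. The lowest counts came with replicates 2 and 3 summed, the most peaks with the replicate block and the most dips with total counts in place of TMM scaling. Of the peaks and dips above, 82.1% to 100% and 75.3% to 100% were called again. DESeq2 called 1813 and 1165. Total counts moved the median contrast over all genes from -0.01 to -0.1.

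With replicate number as a block, 2252 peaks, 1493 dips and 10463 genes by the contrast were called. In their deviations from the state means, libraries of the same number correlated by 0.293, 0.103 and 0.102 between hydrated leaves and 70% RWC, by 0.274, 0.129 and 0.078 between hydrated leaves and 10% RWC, and by 0.238, 0.069 and 0.076 between 70% and 10% RWC. Peaks and dips use all 3 states, and not every correlation was over 0.1, the value required for pairs, so the numbers were not taken as pairs. Not every library correlated best with its own number. The replicate 1 libraries did deviate in the same way in all 3 states. They correlated by 0.238 to 0.293 with each other and negatively with every replicate 2 or 3 of another state. The source of this shared shift was not tested.

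Of 130 genes named by the rule, 125 were called under each of 17 refits and none changed direction. The 5 that lost a call under some refit were Bhs1119_051V1.1, Bhs1799_010V1.1, Bhs180_009V1.1, Bhs414_006V1.1 and Bhs6_075V1.1. Counts per list stayed within 1.5 times in 1876 of 2040 cases. Of genes under 5 CPM 6.69% were peaks, against 19.7% at 50 CPM and over; the part of depth in this was not tested.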
